A study of Mus musculus with 12 samples.

Results

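Integrins of leukocytes were followed as 10 genes: the alpha subunits Itgam, Itgal, Itgax, Itga4, Itga5, Itga6 and Itgav and the beta subunits Itgb1, Itgb2 and Itgb7. They were chosen by name out of 55401 gene IDs in the deposited tables. No measured value was in the rule, but earlier results of these data were known when they were chosen. All 10 were present in both tables, and all 10 passed the filter on low values in every comparison. RNA came from myeloid cells of the hind paw of adult mice, sorted as CD45-positive, CD11b-positive and Ly6G-negative 4 h after an injection into that paw. The injection was sterile saline or 1% carrageenan, a seaweed polysaccharide that provokes an acute local inflammation. Flox mice carried FABP5Flox, and cKO mice carried FABP5Flox together with LysM-Cre, a Cre recombinase placed in the lysozyme gene Lyz2 and active in monocytes, macrophages and neutrophils. The floxed allele is thus shared by every group, and no group carried LysM-Cre alone, so that targeting of Fabp5 and carrying the Cre at Lyz2 cannot be told apart. Each of the 4 groups (Flox saline, Flox carrageenan, cKO saline and cKO carrageenan) held 3 libraries, and each library pooled the cells of 3 or 4 mice. That made 10 mice in each Flox group and 12 in each cKO group. Pools are named here by the mouse numbers in their labels, such as 1-3 or 9-12, and p-values measure the spread between pools.

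Integrins are heterodimers of an alpha and a beta subunit that bind cells to matrix and to other cells and signal in both directions across the membrane. Leukocytes leave the blood in steps: selectins let them roll, chemokine signals activate integrins from the inside through talin and kindlin, and activated integrins hold the cell on endothelial ligands such as ICAM-1 and VCAM-1. The beta2 subunit CD18, encoded by Itgb2, pairs with CD11a (Itgal) in LFA-1, with CD11b (Itgam) in Mac-1, the complement receptor that also marks myeloid cells, and with CD11c (Itgax), which is abundant on dendritic cells and many tissue macrophages. The beta1 subunit (Itgb1) pairs with alpha4 (Itga4) in VLA-4, which binds VCAM-1 and fibronectin, with alpha5 (Itga5) in the fibronectin receptor, with alpha6 (Itga6) in a laminin receptor, and with alphav (Itgav). The beta7 subunit (Itgb7) pairs with alpha4 in a receptor for MAdCAM-1, best known for lymphocyte homing to the gut.

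The libraries differed in depth, and depth followed genotype. Counts assigned to genes ran from 111925 to 994161 in the 6 Flox libraries and from 508407 to 2987015 in the 6 cKO libraries, so that depth and genotype cannot be told apart. A single count equalled 5.46 normalized counts in the shallowest library (Flox saline 1-3) and 0.268 in the deepest (cKO saline 5-8). Fabp5, the targeted gene, was counted in every library, at 5.46 to 94.9 normalized counts in Flox and 4.29 to 22.3 in cKO, and the groups overlapped in saline but not in carrageenan. Of all genes tested, 15.1% did not overlap in carrageenan. The genotype difference of Fabp5 did not pass in limma in saline (adjusted p = 0.683), in carrageenan (0.497) or averaged (0.210). Averaged, it passed in edgeR (adjusted p = 0.0431) and DESeq2 (adjusted p = 0.00482). The 22.3 was in cKO carrageenan 9-12. Itgam, whose protein was the sort marker, was at 290 to 398 normalized counts in every library. Ly6g had 1 count in all Flox carrageenan libraries together, 3 in cKO carrageenan and none in saline. Markers of cells outside the sort were also present: the summed level of 8 fibroblast genes ran from 55.5 to 1441 over the libraries, and that of 6 keratinocyte genes from 255 to 1534.

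The 10 genes lie on 5 mouse chromosomes (GRCm38, GENCODE annotation). Itgal (chr7:127296260-127335138), Itgam (chr7:128062640-128118491) and Itgax (chr7:128129547-128150657) share chromosome 7 and the plus strand, and Itgax begins 11.1 kb after Itgam ends. Itgb7 (chr15:102215995-102231944) and Itga5 (chr15:103344286-103366763) lie on the minus strand of chromosome 15. Itga6 (chr2:71745616-71858416), Itga4 (chr2:79255426-79333123) and Itgav (chr2:83724397-83806916) are on chromosome 2, Itgb1 is on chromosome 8 (chr8:128685654-128733200) and Itgb2 on chromosome 10 (chr10:77530252-77565708). Other gene models overlap some of them: Gm49368 on the strand of Itgam (7 counts in all libraries), Gm13663 on the strand of Itga6 (2 counts) and Cerkl at the end of Itga4 on the other strand (2 counts).

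RefSeq promoter entries (GRCm38.p6) matched 7 of the 10 genes by symbol: Itgam, Itgax, Itga4, Itga5, Itgav, Itgb1 and Itgb7. The promoters of 4 of these are printed because the results turn on these genes. Itgb7 rose in carrageenan, and Itgam and its neighbour Itgax did not pass the test. Itga5 had the lowest p between genotypes in saline and averaged over treatments. Each run is the 250 bases before the annotated start, 5′ to 3′ on the strand of the gene, and capitals mark matches to the motifs searched.
Itgb7 (chr15:102231936-102232185, minus strand): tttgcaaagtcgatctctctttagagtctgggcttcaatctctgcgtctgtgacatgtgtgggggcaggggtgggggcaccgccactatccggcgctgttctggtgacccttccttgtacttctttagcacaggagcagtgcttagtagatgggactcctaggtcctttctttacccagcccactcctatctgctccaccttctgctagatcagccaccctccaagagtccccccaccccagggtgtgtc
Itgam (chr7:128062390-128062639, plus strand): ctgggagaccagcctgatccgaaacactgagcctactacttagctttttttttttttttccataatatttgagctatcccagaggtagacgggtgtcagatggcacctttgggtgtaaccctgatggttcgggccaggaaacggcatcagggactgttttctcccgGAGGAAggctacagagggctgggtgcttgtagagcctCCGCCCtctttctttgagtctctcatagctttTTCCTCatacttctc
Itgax (chr7:128129300-128129549, plus strand): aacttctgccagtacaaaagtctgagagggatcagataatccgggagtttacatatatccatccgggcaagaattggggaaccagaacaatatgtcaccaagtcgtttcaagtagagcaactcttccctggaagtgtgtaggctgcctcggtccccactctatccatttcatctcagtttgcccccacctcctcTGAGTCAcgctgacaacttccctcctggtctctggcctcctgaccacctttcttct
Itga5 (chr15:103366792-103367041, minus strand): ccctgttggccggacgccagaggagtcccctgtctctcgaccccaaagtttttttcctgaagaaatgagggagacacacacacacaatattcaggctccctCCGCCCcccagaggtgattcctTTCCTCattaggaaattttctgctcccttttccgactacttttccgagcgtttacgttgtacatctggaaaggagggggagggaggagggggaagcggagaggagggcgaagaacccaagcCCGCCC
The motifs were GAGGAA (a core bound by PU.1, the myeloid ETS factor), TGAGTCA (AP-1), GGGCGG (Sp1 type), TTGCGCAA (C/EBP) and GGGACTTTC and GGGAATTTC (NF-kB), on both strands, so that TTCCTC and CCGCCC are matches to GAGGAA and GGGCGG on the other strand. GAGGAA was found in 4 of the 7 promoters of these genes (Itgam, Itga5, Itgav and Itgb1) and in 23.3% of 32851 promoters of the same length. GGGCGG was found in 4 of 7 (Itgam, Itga4, Itga5 and Itgb1), against 32.7%, and TGAGTCA in 1 of 7 (Itgax, 56 to 50 bases before the start), against 4.46%. TTGCGCAA, GGGACTTTC and GGGAATTTC were found in none of the 7, against 0.164%, 0.289% and 0.234%. Itgb7 had no match to any of the 6 motifs in this window.

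Carrageenan was compared with saline first, to ask how the integrin genes of the sorted cells differed between the inflamed and the saline-injected paw. Itgal and Itgb7 rose, and the other 8 genes did not pass the test. Averaged over both genotypes, Itgal was 3.05-fold higher (log2 fold change 1.61 ± 0.31 SE, limma adjusted p = 0.00357) and Itgb7 2.88-fold higher (1.52 ± 0.38, limma adjusted p = 0.0165), on log2 of the normalized count plus 1. Thus 2 of 10 genes rose and none fell, where 11.6% of the 10240 genes tested were called, 6.77% higher and 4.83% lower. The share of rises among all calls was 58.3%, against 46.1% on CPM (counts scaled to the library total). The median log2 fold change of the 10 genes was 0.19, against 0.02 over all genes tested. Values in this and the next paragraphs are normalized counts on 1 scale for all 12 libraries, unless stated otherwise. The sorted cells are a mixture, and in such bulk RNA a change in the share of a cell type cannot be told apart from a change in RNA per cell.

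**Figure D1:**
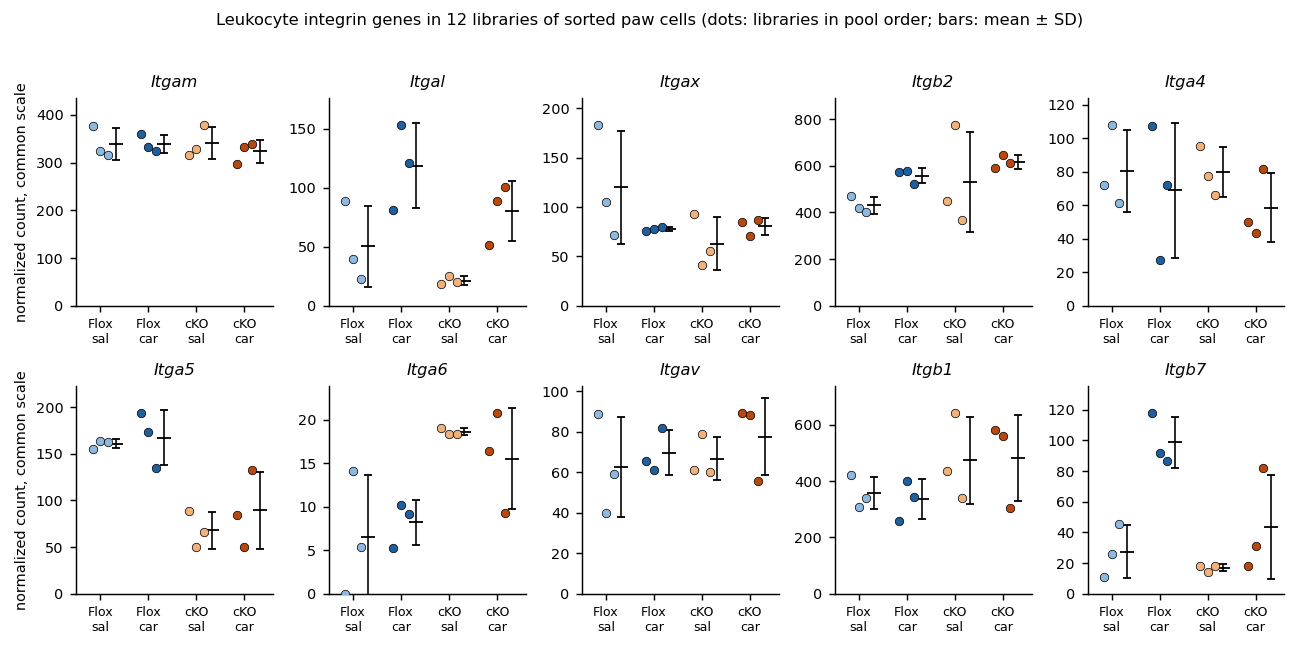
Normalized counts (common scale, linear axis from 0) of the 10 integrin genes in each of 12 libraries, by group, with the mean and SD of 3 libraries beside the dots; the SD of Itga6 in Flox saline reaches below 0 and is cut off there. Itgam stayed between 297 and 379 in all libraries, while Itgal was above 50 in every carrageenan library and at most 25.2 in cKO saline. In Flox the groups of Itgal overlapped, with 88.8 in Flox saline 1-3 and 81.2 in Flox carrageenan 1-3.

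Among the beta2 genes, Itgal moved without Itgam. Itgal, the alpha subunit of LFA-1, was at 88.8, 39.9 and 22.6 normalized counts in Flox saline pools 1-3, 4-7 and 8-10, and at 81.2, 153 and 121 in the Flox carrageenan pools of those numbers. In cKO it was at 18.03, 25.2 and 20.1 in saline pools 1-4, 5-8 and 9-12, and at 51.6, 88.3 and 100.4 in carrageenan. The cKO groups did not overlap, as was so for 29.6% of all genes tested, and in Flox the overlap came from the shallowest saline library, where 88.8 rests on 16 counts. The log2 fold change was 1.83 ± 0.44 in cKO (limma adjusted p = 0.0410) and 1.38 ± 0.44 in Flox (limma adjusted p = 0.0753), and the difference between these effects was 0.43 ± 0.61 (interaction, limma adjusted p = 0.967). In cKO, Itgal was the only one of the 10 genes called, where 2.65% of 10240 genes were called (2.10% higher and 0.547% lower, with 79.3% of calls higher and 65.7% on CPM). With the pool number as a replicate block in cKO, where pools of the same number deviated together, the call was lost (limma adjusted p = 0.0593, and 0.0724 with the block in both genotypes). It was also lost on the deposited scale (1.72, limma adjusted p = 0.0549). Leaving out 1 library at a time kept the log2 fold change of Itgal in cKO between 1.65 and 2.12 but lost the call for 8 libraries: cKO saline 1-4, 5-8 and 9-12, cKO carrageenan 5-8 and 9-12 and Flox carrageenan 1-3, 4-7 and 8-10 (limma adjusted p from 0.0526 to 0.191). In Flox, Itgal was called by edgeR (adjusted p = 0.0428), by DESeq2 (adjusted p = 0.0304) and by limma without Flox saline 1-3 (1.89, adjusted p = 0.00732). The rise averaged over genotypes was called in all 22 alternatives run, leaving out each library included, and with the replicate block (limma adjusted p = 0.0108).

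Itgam, the alpha subunit of Mac-1, differed little between libraries. It was at 377, 324 and 315 in Flox saline, 359, 333 and 325 in Flox carrageenan, 317, 328 and 379 in cKO saline and 297, 333 and 340 in cKO carrageenan. The groups overlapped throughout, and the 95% interval of the averaged log2 fold change ran from -0.34 to 0.27 (-0.04 ± 0.14, limma adjusted p = 0.908). Since cells were sorted on its protein, this level is that of cells already selected for it.

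Itgb2, the common beta2 subunit, was at 472, 417 and 403 in Flox saline and 574, 578 and 521 in Flox carrageenan. These groups did not overlap, yet the difference did not pass the test (log2 fold change 0.37 ± 0.26, limma adjusted p = 0.400), and 23.0% of all genes tested had Flox groups that did not overlap. In cKO it was at 451, 775 and 370 in saline and 589, 646 and 613 in carrageenan, where the saline pool 5-8 was the highest of all libraries and the groups overlapped (0.28 ± 0.26, limma adjusted p = 0.921). Itgax, encoding CD11c, was at 183, 106 and 71.2 in Flox saline and 76.0, 78.2 and 79.8 in Flox carrageenan. In cKO it was at 92.5, 41.0 and 55.6 in saline and 84.8, 70.5 and 86.5 in carrageenan. The saline values spread 2-fold or more within each genotype, the groups overlapped, and the averaged log2 fold change was -0.04 ± 0.25 (limma adjusted p = 0.943). The estimates had opposite signs in Flox (-0.51 ± 0.36) and cKO (0.42 ± 0.36), and the difference between them was 0.91 ± 0.49 (interaction, limma adjusted p = 0.967).

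Itgb7, the beta7 subunit, was at 11.1, 25.8 and 45.3 in Flox saline, resting on 2, 11 and 42 counts, and at 118, 91.8 and 86.6 in Flox carrageenan (45, 27 and 114 counts). The Flox groups did not overlap, and the log2 fold change was 2.00 ± 0.54 (4.01-fold, limma adjusted p = 0.0373). Itgb7 was the only one of the 10 genes called in Flox, where 7.17% of 10240 genes were called (4.42% higher and 2.74% lower, with 61.7% of calls higher and 49.1% on CPM). In cKO it was at 18.4, 14.3 and 18.3 in saline and at 18.1, 30.8 and 81.8 in carrageenan. There 1 library, cKO carrageenan 9-12, held the high value, and pool 1-4 was at the saline level (1.05 ± 0.54, limma adjusted p = 0.562). The difference between the effects in cKO and Flox was -0.98 ± 0.77 (interaction, limma adjusted p = 0.967). The call in Flox was lost with edgeR (1.58, adjusted p = 0.0510), on CPM (1.86, limma adjusted p = 0.0534) and without a filter (limma adjusted p = 0.0907). It was also lost without any 1 of 9 libraries, namely all Flox libraries but saline 8-10, all cKO saline libraries and cKO carrageenan 5-8 (limma adjusted p from 0.0527 to 0.114). The averaged rise was called in all 22 alternatives, and without cKO carrageenan 9-12 it was 1.23 (limma adjusted p = 0.0422).

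The alpha4, alpha5, alpha6, alphav and beta1 genes did not pass in any of the 3 carrageenan comparisons. Itga4, the VLA-4 alpha subunit, was at 72.1, 108 and 61.5 in Flox saline and 107, 27.2 and 72.2 in Flox carrageenan, where 27.2 rests on 8 counts. In cKO it was at 95.6, 77.5 and 66.3 in saline and 50.3, 43.3 and 81.8 in carrageenan. Both pairs of groups overlapped, and the averaged log2 fold change was -0.43 ± 0.31 (limma adjusted p = 0.431). Itga5 was between 135 and 194 in the Flox libraries of both treatments and between 49.7 and 133 in those of cKO (averaged log2 fold change of carrageenan 0.18 ± 0.23, limma adjusted p = 0.687). Itgb1 was between 259 and 422 in Flox and between 304 and 642 in cKO (-0.04 ± 0.22, limma adjusted p = 0.928). Itgav was between 39.9 and 89.2 in all 12 libraries (0.20 ± 0.23, limma adjusted p = 0.645). Itga6 was the lowest of the 10 in counts, with 11 counts in all Flox saline libraries together and 0 in pool 1-3, where 3 counts would be 16.6 normalized counts. Its log2 fold change was 0.96 ± 0.82 in Flox (95% interval -0.80 to 2.71) and -0.32 ± 0.82 in cKO (-2.07 to 1.44), with 1 estimate of spread for all groups. In cKO it was at 19.0, 18.3 and 18.3 in saline, on 31 to 72 counts, and at 16.4, 20.7 and 9.26 in carrageenan.

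**Figure D2:**
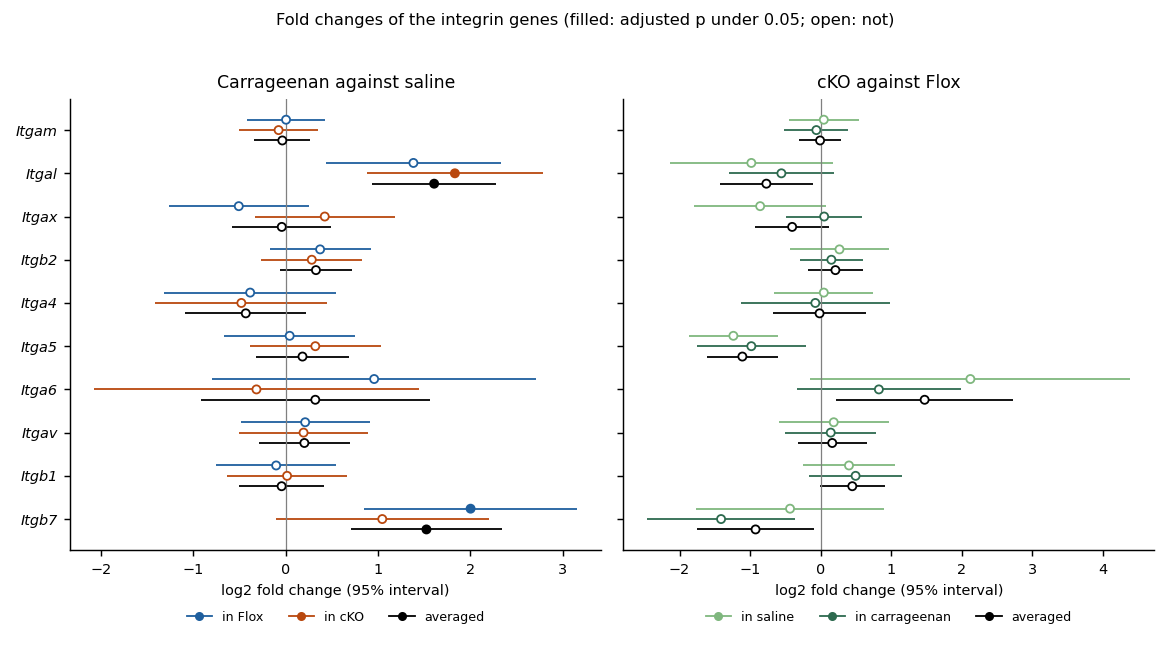
Log2 fold changes (limma, points) with 95% intervals (lines) of the 10 genes, for carrageenan against saline on the left and cKO against Flox on the right; filled points have an adjusted p under 0.05 over all genes. The filled points are Itgal in cKO and averaged and Itgb7 in Flox and averaged; no genotype comparison has one.

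Because alpha and beta subunits pair, 11 ratios of subunit transcripts were taken within each library. This removes the scale of the library except through the 1 added to each value, which weighs most on low genes. With libraries exchanged freely within genotypes, Itgal rose relative to Itgb2 and to Itgam with carrageenan, and Itga4 fell relative to Itgb7; with cKO pools paired none of these passed. The mean log2 ratio of Itgal to Itgb2 went from -3.28 in Flox saline to -2.27 in Flox carrageenan and from -4.53 to -2.98 in cKO (mean difference 1.28, exact two-sided permutation p = 0.01 within genotypes, 0.0367 adjusted over the 11 ratios). The log2 ratio of Itgam to Itgal fell by 1.64 (exact permutation p = 0.01, adjusted 0.0367), with means of 2.93 and 1.56 in Flox and 3.96 and 2.05 in cKO. The log2 ratio of Itga4 to Itgb7 fell by 1.96, from 1.68 to -0.70 in Flox and from 2.16 to 0.63 in cKO (exact permutation p = 0.005, the smallest that 400 arrangements allow, adjusted 0.0367). The ratios share genes, so the first and second both rest on Itgal. With same-numbered cKO pools exchanged only within their pair (replicate block in cKO, 160 arrangements, chosen after seeing the data), none of the 3 passed. The exact permutation p was then 0.025, 0.025 and 0.0125, the last the smallest possible, and the adjusted p 0.0688 for each. A single ratio at that floor could not pass after adjustment over 11 ratios. The other 8 ratios did not pass in either form. Itgam to Itgb2, the pair of Mac-1, was between -0.37 and -0.32 in Flox saline and between -0.79 and -0.68 in Flox carrageenan, but in cKO the saline range of -1.24 to 0.03 spanned the carrageenan range of -0.99 to -0.85 (mean difference -0.36, exact permutation p = 0.05, adjusted 0.138). With 1 library left out the number of ratios passing, over both kinds of comparison, was 0 without Flox saline 8-10, Flox carrageenan 4-7 or 8-10, cKO saline 1-4 or any of the cKO carrageenan libraries. It was 5 without Flox carrageenan 1-3 or cKO saline 5-8. Over those omissions the difference was at least 1.08 for Itgal to Itgb2 and ran from -1.86 to -1.44 for Itgam to Itgal and from -2.27 to -1.70 for Itga4 to Itgb7.

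**Figure D3:**
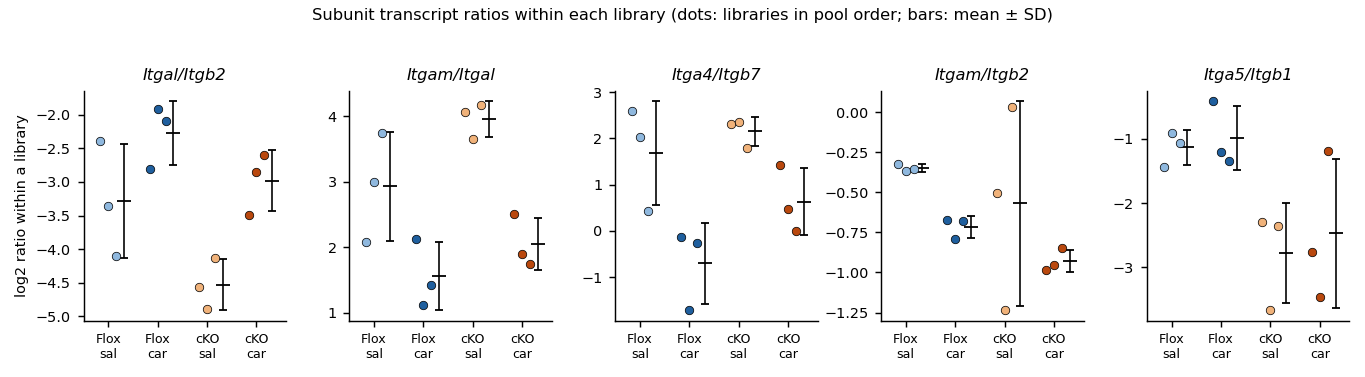
Log2 ratio of 2 subunit transcripts within each library (dots) by group, with mean and SD of 3 libraries. In Itgal/Itgb2 and Itgam/Itgal the cKO groups are separate and the Flox groups overlap; in Itga4/Itgb7 both genotypes are separated, at 0.43 to 2.60 against -1.72 to -0.13 in Flox and 1.80 to 2.36 against 0 to 1.42 in cKO.

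Marker genes of several cell types, some of which the sort was meant to remove, differed between saline and carrageenan as did Itgal and Itgb7. These lists were chosen with earlier results of these data known, so their counts only describe these libraries. All 13 resident macrophage markers fell in carrageenan averaged over genotypes, among them Cd163, a haemoglobin scavenger receptor (-1.68 ± 0.17), and 8 of 10 inflammatory monocyte markers rose, among them Ly6c2 (3.32 ± 0.39), Plac8 (3.36 ± 0.36) and Chil3 (3.42 ± 0.42). The summed level of the resident markers ran from 10288 to 14147 in Flox saline and 3326 to 4279 in Flox carrageenan, and from 14038 to 17437 and 4328 to 7926 in cKO. The summed monocyte markers ran from 1032 to 1938 and 6365 to 8351 in Flox, and from 828 to 1481 and 2555 to 9298 in cKO. Of 7 neutrophil markers tested, 5 rose, with sums of 35.2 to 76.6 and 398 to 730 in Flox and 19.9 to 37.3 and 143 to 704 in cKO. Camp and Ngp had no count in any group. Of 6 dendritic cell markers tested, 2 rose, Ccr7, a homing receptor (2.35 ± 0.72), and Cd209a (0.65 ± 0.20). The other 4 were not called, and the median log2 fold change of the 6 was 0.12 (-1.04 to 2.35). Within Flox or cKO alone limma called none of them. The sums of that list did not overlap, at 117 to 208 and 228 to 275 in Flox and 88.8 to 129 and 182 to 247 in cKO. Of 12 lymphocyte and NK cell markers, 2 were tested, and Gzma, a cytotoxic granule protease, rose in Flox (3.97 ± 0.66, limma adjusted p = 0.00288) from a mean of 0.36 to 20.8. Their sum ran from 2.34 to 5.55 in Flox saline, 22.8 to 40.8 in Flox carrageenan, 6.46 to 8.28 in cKO saline and 0 to 3.85 in cKO carrageenan, lower in carrageenan than in saline in cKO, with Cd3d and Cd79a at 0 in every group. Within cKO carrageenan, pools 1-4, 5-8 and 9-12 had monocyte sums of 2555, 5867 and 9298, neutrophil sums of 143, 202 and 704 and resident sums of 7926, 7216 and 4328. In the same order Itgal was at 51.6, 88.3 and 100.4 and Itgb7 at 18.1, 30.8 and 81.8. In cKO saline pools 1-4, 5-8 and 9-12 the monocyte sums were 828, 1481 and 1182. Itgal followed that order there (18.03, 25.2 and 20.1), but Itgb7 did not (18.4, 14.3 and 18.3). In Flox saline and in Flox carrageenan neither gene followed the order of the monocyte sums. The part of these cell types in the rise of Itgal and Itgb7 was not tested.

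**Figure D4:**
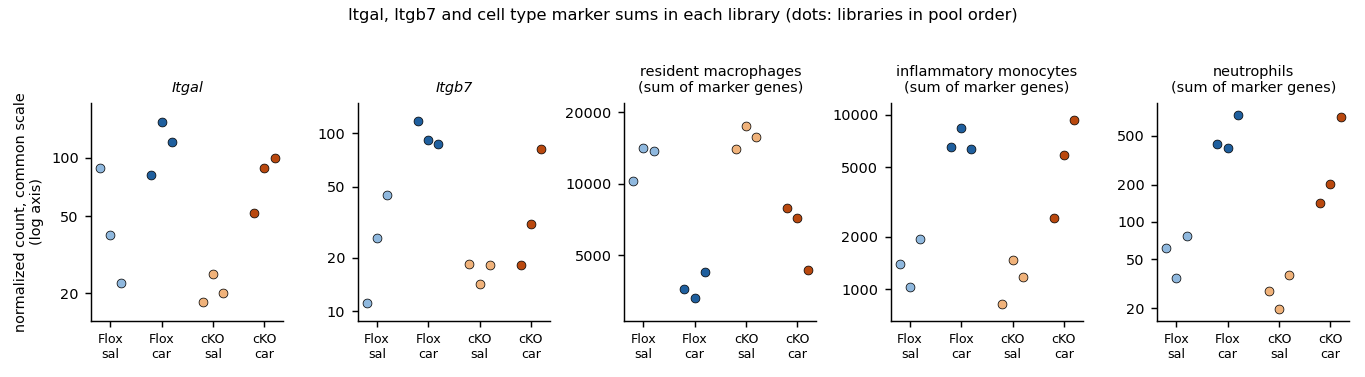
Itgal, Itgb7 and the summed levels of the marker genes of 3 cell types in each library (normalized counts on the common scale, log axis), by group. In cKO carrageenan the pool 9-12, drawn on the right, has the highest Itgal, Itgb7, monocyte and neutrophil values of its group and the lowest resident macrophage value. In the other groups Itgb7 does not follow the order of the monocyte values.

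Genes that work with integrins were described by 6 further lists, also chosen with earlier results of these data known. Of 19 kinases and adaptors tested that signal from bound integrins, 7 rose in carrageenan averaged over genotypes and none fell, where 6.77% of all genes tested rose. Among them were the Src-family kinases Fgr (1.64 ± 0.20, limma adjusted p = 0.000113) and Lyn (0.81 ± 0.18, limma adjusted p = 0.00904) and the actin regulator Vasp (0.83 ± 0.18, limma adjusted p = 0.00703). Fgr rose in both genotypes, from a mean of 149.6 to 393 in Flox and from 124 to 446 in cKO. Of 13 integrin ligands tested, 5 rose, led by Thbs1, a matrix thrombospondin (3.25 ± 0.40), and C3, whose fragment iC3b binds Mac-1 (2.97 ± 0.47). Thbs1 is also on the monocyte marker list. Within Flox limma called 5 of the 13 ligands higher and within cKO 1, while edgeR called 3 in each. Of the 19 signalling genes limma called 3 higher in Flox and 2 in cKO. Over all genes tested 4.42% were called higher in Flox and 2.10% in cKO. Without cKO carrageenan 9-12, 4 of 13 ligands and 6 of 19 signalling genes rose, where 587 of 10145 genes tested rose.

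Of 11 membrane proteins known to associate with integrins, 3 rose and 1 fell: Cd44, the hyaluronan receptor (0.92 ± 0.20), Plaur, the urokinase receptor (0.98 ± 0.17), Cd53 (0.87 ± 0.20) and the tetraspanin Cd81 (-1.39 ± 0.24). Of 6 selectin and junction genes tested, 4 rose, among them Selp (2.68 ± 0.62), Esam (1.83 ± 0.51) and Pecam1 (1.63 ± 0.48). Within cKO, 1 of 6 was called higher in limma. The lists overlap with those of monocyte and endothelial markers. Without cKO carrageenan 9-12 the averaged count was 2 of 6. Markers of fibroblasts, which also hold Col1a1, were higher in carrageenan with the ligands in both genotypes, and those of endothelium, which also hold Pecam1, in Flox but not in cKO. The summed fibroblast markers ran from 55.5 to 647 in Flox saline, 908 to 1441 in Flox carrageenan, 309 to 707 in cKO saline and 844 to 1320 in cKO carrageenan, and 4 of 8 rose (2 without cKO carrageenan 9-12). The summed endothelial markers ran from 0 to 28.04, 62.9 to 73.7, 32.4 to 70.4 and 46.2 to 63.4 in the same order, and 2 of 6 rose averaged over genotypes (0 without cKO carrageenan 9-12), with a median log2 fold change of 2.40 in Flox and -0.06 in cKO. The part of those cells in the ligand and selectin counts was not tested. None of 16 activators and inhibitors that control integrins from the inside, such as talin and kindlin genes, passed in limma (5 at an unadjusted p under 0.05, a level that 24.1% of all genes reached). With edgeR 1 was called lower, and with DESeq2 1 of 18 higher and 1 lower. The median log2 fold change of those 16 was 0.05, against 0.39 for the signalling genes, 1.17 for the ligands and 0.02 over all genes. None of 7 other integrin subunits tested, of 17 listed, passed in limma (3 at an unadjusted p under 0.05). With edgeR 1 of 3 tested rose, and with DESeq2 3 of 17. Itga1, a collagen-binding subunit, was 1.28 ± 0.46 and Itgb3 1.53 ± 0.55, the latter from 0 counts in Flox saline.

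**Figure D5:**
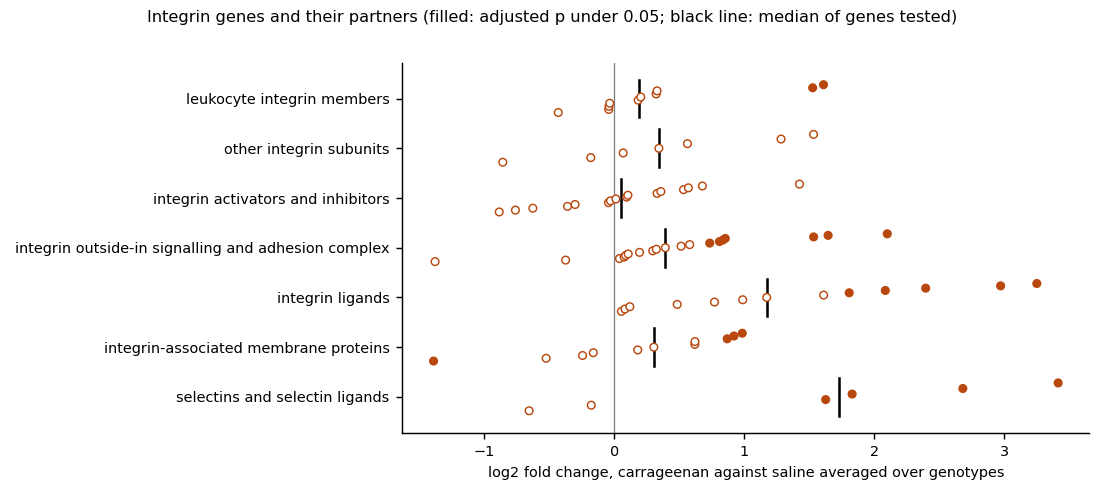
Log2 fold change of carrageenan against saline averaged over genotypes for every tested gene of 7 integrin-related lists; filled points have an adjusted p under 0.05, and the black line is the median of the genes tested. The 10 leukocyte integrins, at the top, have a median of 0.19 and 2 filled points; the ligands and selectins have medians of 1.17 and 1.73.

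Genotype was compared within each treatment, on the deposited normalized counts, to ask whether cells of cKO mice differed from those of Flox mice. None of the 10 genes passed in saline, in carrageenan or averaged over treatments in limma, where 0% of 9371, 0% of 9151 and 0.00976% of 10243 genes passed. At an unadjusted p under 0.05 there were 1 gene in saline (Itga5), 2 in carrageenan (Itga5 and Itgb7) and 4 averaged (Itga5, Itgal, Itga6 and Itgb7), where 5.42%, 9.80% and 14.9% of all genes were under that value. edgeR and DESeq2 called none of the 10 in either treatment alone, where DESeq2 gave no adjusted p for 5 of them in carrageenan, and each called Itga5 averaged over treatments. No gene of the 10 differed between genotypes in its response to carrageenan in limma, edgeR or DESeq2, and none had an unadjusted p under 0.05 in limma, against 2.38% of all genes.

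Itga5, the alpha subunit of the fibronectin receptor, was the gene of this family with the lowest p in saline and averaged over treatments. In carrageenan the unadjusted limma p of Itgb7 (0.01295) was below that of Itga5 (0.01765). The values of Itga5 are given first. In saline it was at 153, 170.1 and 172 normalized counts in Flox (28, 70 and 151 counts) and 91.9, 52.2 and 69.0 in cKO (260, 195 and 111 counts). In carrageenan it was at 188, 167 and 129.7 in Flox and 82.8, 48.5 and 128 in cKO. Every cKO library was below every Flox library of its treatment, though in carrageenan the gap between cKO 9-12 and Flox 8-10 was small. Groups that did not overlap were found for 15.6% of genes tested in saline and 15.1% in carrageenan. Among the 10 members they were 2 in saline (Itga5 and, higher in cKO, Itga6). In carrageenan they were 3 (Itga5, Itgb7 and, higher in cKO, Itgb2). Itgb2 was there at 500 to 556 in Flox and 575 to 622 in cKO (0.15 ± 0.20, limma adjusted p = 0.781). For Itga5, cKO minus Flox on the log2 scale was -1.24 ± 0.28 in saline (limma adjusted p = 0.683), -0.98 ± 0.35 in carrageenan (limma adjusted p = 0.497) and -1.11 ± 0.23 averaged (limma adjusted p = 0.186). The averaged difference passed in edgeR (-1.08, adjusted p = 0.0492) and DESeq2 (-1.09, adjusted p = 0.00482), where 48 of 8900 and 202 of 22055 genes tested passed. Without cKO carrageenan 9-12 it passed in limma, averaged (-1.28, adjusted p = 0.0128) and in carrageenan (-1.32, adjusted p = 0.0424). In these 2 fits 230 of 10148 and 420 of 8908 genes tested passed. The omitted pool (508407 counts) lay within the depths of Flox carrageenan, 220463 to 994161 counts. The cKO carrageenan pools that remain had 2271231 and 2627107 counts, all above Flox. Depth and genotype cannot be told apart in these fits. In the authors' deposited table Itga5 had a log2 fold change of -1.09 in saline with an adjusted p of 0.0574. In carrageenan the authors' deposited table gives -0.78 with an adjusted p of 0.380.

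Itgb7 in carrageenan was at 114, 88.4 and 83.1 in Flox and 17.7, 29.7 and 78.8 in cKO. The groups did not overlap, but 1 cKO library lay close to Flox. The log2 fold change was -1.41 ± 0.47 (limma adjusted p = 0.497), and without cKO carrageenan 9-12 it was -1.99 and passed (limma adjusted p = 0.0147). That pool had the highest monocyte sum and the lowest depth of its group. It alone in its group lay within the range of depth of Flox carrageenan. In the same comparison of genotypes the median log2 difference was -0.80 over 10 monocyte markers (-1.51 to -0.20) and 1.11 over 13 resident macrophage markers (-0.53 to 1.63), and none of these passed in limma or edgeR. In limma 2 monocyte and 8 resident markers had an unadjusted p under 0.05. DESeq2 called 2 resident markers higher, where it called 11 of 19616 genes tested. Without cKO carrageenan 9-12, limma called 5 of 10 monocyte markers lower in cKO, and 8 of 13 resident markers higher and 1 lower. In that fit 420 of 8908 genes tested were called, 127 higher and 293 lower. The part of these cell types in the Itgb7 and Itga5 values was not tested. In saline the groups overlapped (-0.44 ± 0.58, limma adjusted p = 0.773), and so did those of Itgal in both treatments (-0.98 ± 0.50 in saline and -0.56 ± 0.33 in carrageenan). Itga6 in saline was at 0, 14.6 and 5.69 in Flox and 19.8, 19.3 and 19.3 in cKO, on 0, 6 and 5 counts in Flox. Its log2 fold change was 2.12 ± 0.99 (limma adjusted p = 0.683) and became 1.00 without Flox saline 1-3, the library with no count. Itgb1 had an averaged log2 fold change of 0.45 ± 0.22 (limma adjusted p = 0.343), Itgb2 of 0.21 ± 0.18, Itgav of 0.16 ± 0.23, Itga4 of -0.02 ± 0.31, Itgam of -0.01 ± 0.14 and Itgax of -0.41 ± 0.24. The 95% interval of Itgam, -0.31 to 0.29, was the narrowest of the 10.

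Since depth followed genotype, libraries near each other in depth were set side by side, a choice made after seeing the data, with no test. In saline the nearest pair was Flox 8-10 (637238 counts) and cKO 9-12 (1145606). There Itga5 was at 172 and 69.0, Itgb7 at 47.8 and 19.3, Itgal at 23.9 and 21.1 and Itgb1 at 359.5 and 359. The cKO library of this pair was still 1.80-fold deeper, so depth and genotype cannot be told apart here either. In carrageenan the depth of cKO 9-12 (508407) lay between those of Flox 1-3 (280541, the nearest) and Flox 8-10 (994161). Itga5 was at 128 in cKO 9-12, against 188 in Flox 1-3 and 129.7 in Flox 8-10. Itgb7 was at 78.8, against 114 and 83.1, and Itgal at 96.7, against 78.6 and 116. For Itga5 and Itgb7 the cKO library was thus well below the nearest Flox library and close to the next.

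None of the 11 subunit ratios passed between genotypes. The lowest adjusted p was 0.055, for Itga5 to Itga4 (log2 difference -1.09, exact permutation p = 0.005), Itga5 to Itgb1 (-1.56, exact permutation p = 0.015) and Itgal to Itgb2 (-0.98, exact permutation p = 0.015). For Itga5 to Itga4, 0.005 is the smallest p that 400 arrangements allow. Adjusted over 11 ratios, a single ratio at that floor could not pass, so the test cannot decide on that ratio alone. Itga5 to Itgb1 was between -1.43 and -0.42 in all Flox libraries and between -3.66 and -1.19 in those of cKO, where pool 9-12 in carrageenan gave -1.19.

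Over the groups, the order of mean levels differed between members. Itgal and Itgb7 had the same order, Flox carrageenan, cKO carrageenan, Flox saline and cKO saline, but neighbouring groups overlapped except for Itgb7 in Flox carrageenan, which lay above all other groups. The gap was small, with a lowest value of 86.6 there against 81.8 in cKO carrageenan 9-12 (common scale). For Itga5 both Flox groups lay above both cKO groups with no overlap, and within a genotype the treatments overlapped. Itgb2 was highest in cKO carrageenan, and Itga6 in cKO saline, where 3 pools gave 18.3 to 19.0. For Itgam, Itgax, Itga4, Itga6, Itgav and Itgb1 every pair of neighbouring groups overlapped.

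Genes whose log2 level over the 12 libraries was most like that of each member were named among 5502 genes with a mean of at least 20, by Pearson's r. The libraries share groups and depth, so r describes these 12 libraries only. Itgal was most like Pgf (r = 0.96) and Eif2ak2 (r = 0.96), and Itgb7 most like Glipr2 (r = 0.98) and Ifi30 (r = 0.97). Itga5 was most like Plekhg2 (r = 0.92) and Hdlbp (r = 0.91), Itgb1 most like Sec31a (r = 0.98) and Sqstm1 (r = 0.94), Itgb2 most like Tgif1 (r = 0.89) and Grpel1 (r = 0.88), and Itgav most like Tmem185b (r = 0.95) and Malsu1 (r = 0.94). Itga4 was most like Nr1h2 (r = 0.91) and Wipf1 (r = 0.89). For Itgax (Zmynd15, r = 0.89, and Bclaf1, r = 0.84) and Itga6 (Hook3 and Mat2b, r = 0.97 each), r without Flox saline 1-3 was 0.77, 0.70, 0.89 and 0.86. Itgam had the least like partners, Polr2h (r = 0.83) and Echs1 (r = 0.78). Among the members themselves, r ran from -0.75 between Itga5 and Itgb1 to 0.64 between Itgav and Itgb1, and Itgal and Itgb7 had r = 0.59. Without Flox saline 1-3 the lowest was -0.83, between Itga5 and Itga6, and the highest 0.77, between Itgal and Itgb7, and r of Itga6 and Itgb7 went from 0.00 to -0.80.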

How the data were processed

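Cells and groups are as given above. Libraries were made with the Lexogen LUTHOR kit, which reads the 3' ends of mRNA and tags molecules with identifiers, per the labels, so counts were not divided by gene length. cutadapt, STAR and GRCm38 were named, per the submitters' processing notes (no version, counter or annotation is given in the sources used here). The unit of the tables that the authors deposited is a signal, normalized counts: each gene's count over the size factor of its library. Saline and carrageenan libraries were scaled apart, in 1 table each. Other tables deposited by the authors give, per the file headers, log2 fold changes of cKO over Flox, p-values and a score (the fold change over its error, not used here).

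Whole counts were recovered from the deposited values (100% of low values whole, tolerance 0.001), and 121 entries that are not genes, 0.170 to 2.23% of a library, were left out. Of 55401 gene IDs, 55141 had a symbol. For carrageenan against saline, median ratios over 6501 genes gave the 12 libraries a common scale, and 4 group means were fitted. Genotypes were compared on the deposited scale, within a treatment (6 libraries) or over all 12 for the average and the interaction. Values were tested as log2(value + 1) by limma, with the variance trended on the mean, on genes reaching 5 in at least 3 libraries, with Benjamini-Hochberg adjustment over all genes and a threshold of 0.05; the added 1 understates changes of low genes. Subunit ratios were tested by exact permutation within strata. R 4.3.3, limma 3.58.1, edgeR 4.0.16 (quasi-likelihood, TMM) and DESeq2 1.42.0 were used, the last 2 on recovered counts as alternatives. The script was tested on simulated data.

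The labels do not say whether pools with the same number are the same mice. Deviations from the group means correlated between same-numbered cKO pools (r = 0.24, 0.49 and 0.58 over 6659 genes) and less or not between Flox pools (0.03, -0.02 and 0.11). Between cKO pools of different numbers r ran from -0.52 to 0.33. The highest, saline 5-8 with carrageenan 1-4, was above the 0.24 of the pools numbered 1-4. The block is given beside cKO results where it changes a call. Within groups, libraries were more different than counting alone gives (chi-square over degrees of freedom 2.71 to 16.3).

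The members and lists were chosen with earlier results of these data known. Named genes were the 10 members, the 2 genes most like each, up to 4 genes of each list with the lowest p in the averaged carrageenan comparison and all called ones where 3 or fewer were called. Alternatives were other added constants (0.5 and 5), other filters, CPM, other scales, edgeR, DESeq2, the replicate block and leaving out each library. Motifs in proteins were not analysed here. Some genes that this rule names are not reported here.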

Additional observations from a re-analysis of the deposited data

How the results depend on the processing

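Averaged over genotypes, 2 of the 10 integrin genes rose in carrageenan under every alternative run, 12 omissions of a library and 10 others. In Flox the count of 1 became 0 on CPM, without a filter on low values and with the replicate block, and 2 with DESeq2, and ran from 0 to 1 over omissions. In cKO the count of 1 became 0 on CPM, on the deposited scale, without a filter, with the replicate block and with the replicate block in cKO only (chosen after seeing the data), and ran from 0 to 1 over omissions. The averaged genotype comparison went from 0 to 1 gene with edgeR and with DESeq2 and ran from 0 to 1 over omissions, and genotype in carrageenan ran from 0 to 2. The number of subunit ratios passing, 3, ran from 0 to 5 over omissions, which leave 200 arrangements in place of 400, and was 0 with the replicate block in cKO only, which leaves 160. The replicate block changed no other call among the 10 genes. Genotype in saline and the interaction stayed at 0 genes in limma, edgeR and DESeq2. Of 70 differences of a member, 28 took the opposite sign in at least 1 alternative, none of them called in any. The cause of these changes was not tested.

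Over all genes, 734 called in Flox became 418 without a filter, 423 without Flox carrageenan 1-3 and 350 without Flox carrageenan 4-7. In cKO, 271 became 852 with DESeq2, 714 with edgeR, 139 without a filter, 84 to 146 without cKO carrageenan 5-8 or 9-12 or any cKO saline library, and 521 without Flox saline 1-3. Averaged, 1188 became 789 without cKO saline 1-4. For genotype, 0 became 19 (saline) and 11 (carrageenan) with DESeq2 and 420 in carrageenan without cKO carrageenan 9-12. Averaged, 1 became 202 with DESeq2, 48 with edgeR, 8 with an added 5, 230 without cKO carrageenan 9-12, 11 without Flox saline 8-10 and 0 without a filter, cKO carrageenan 1-4 or 5-8, cKO saline 5-8 or 9-12 or any Flox carrageenan library. CPM moved the median of all genes by -0.14 to -0.16 in the carrageenan comparisons and the deposited scale by -0.08 to -0.11. In the shallowest library 3 counts equal 16.6 normalized counts on the common scale, above most Itga6 values, which limits the Flox comparisons of Itga6.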
